A study of Homo sapiens with 22 samples.

Results

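The regions described here are CTCF sites that lacked a called peak in unstimulated K562 cells and carried one after 72 h of PMA. Of 66168 regions in the deposited CTCF count table, 65346 lie on chromosomes 1 to 22 and X, and 2627 of these overlapped by at least 1 bp a peak of both 72 h CTCF libraries and of neither 0 h CTCF library. They were thus chosen by the CTCF peak calls of the 0 and 72 h libraries, and are called gained regions. They were split by Jun: 1360 overlapped a Jun peak of both 72 h Jun libraries, 1048 overlapped a Jun peak of neither, and 219 overlapped a Jun peak of 1 library and were counted apart. For comparison, 1150 regions had CTCF peaks in both 0 h libraries and in neither 72 h library (lost regions), and 17939 had peaks in all 4 of these libraries (stable regions).

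K562 is a human leukemia line with erythroid features, of wild type genotype here, and PMA is a phorbol ester that activates protein kinase C and drives the line toward megakaryocyte traits. Cells received 25 nM PMA for 0, 6 or 72 h, were fixed with formaldehyde, and were profiled by an assay titled CNR, read here as CUT&RUN, in which an antibody directs a nuclease to cut out the DNA beside the bound protein. There were 2 libraries per antibody and time point for CTCF, Jun and H3K27ac, and 2 each at 0 and 72 h for Rad21, which makes 22 libraries in 11 groups. All were of this 1 cell line in the same medium. Nothing in the labels says whether replicates came from separate cultures, so a p-value measures only the spread between these libraries. In such bulk material, more bound cells and more binding per cell cannot be told apart.

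CTCF is a zinc finger protein that binds a long DNA motif and marks insulators and the anchors of chromatin loops. Cohesin, a ring that includes Rad21, extrudes loops and is halted at CTCF sites. Jun is a subunit of AP-1, a factor that PMA activates and that binds enhancers, and H3K27ac is a histone mark of active promoters and enhancers.

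As a check of the cell type, H3K27ac peaks of both 0 h libraries lay in the spans of the erythroid genes TAL1, KLF1, TFRC and LMO2. GATA1 had a peak in 1 library and HBG1 in none. Among genes of other blood lineages, CD79A had a peak in both libraries, and CD3E, CD4, CD8A, MS4A1 and PAX5 had none. Total counts in CTCF regions ranged from 2553677 to 6068421 per library. Replicates of every group differed by more than sampling noise (chi-square per degree of freedom from 2.15 to 6.74), and the first CTCF library at 6 h stood apart, with 18043 peaks against 26792 in the second and 30.5% of its counts on the mitochondrial chromosome. That mitochondrial share was 17.8% and 22.1% in the CTCF libraries at 0 h and 9.55% and 9.63% at 72 h. The number of peaks was 33632 and 28029 at 0 h against 27158 and 40805 at 72 h. The part these differences play in which regions crossed the peak threshold was not tested.

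DNA sequence is shown for 4 gained regions that overlap the window of a gene start. They were picked for a match to the CTCF motif and do not stand for gained regions in general. RefSeq start windows (GRCh38.p14; 250 bases before to 50 after each annotated start) overlapped 321 of the 2516 gained regions on chromosomes that the table of windows covers. The 4 sequences here are the 250 bases before the start, read 5′ to 3′ on the gene's strand, for gained regions whose window holds the CTCF core letters (CCA, any 2 bases, AG, any 2 bases, GGC) on either strand. Capitals mark that match. A window had to overlap a region by only 1 bp, so the match may lie outside the region. DIRC3, a long non-coding RNA gene, is shown as the case without a Jun peak, and DEDD2, FAAP20 and UAP1 as cases with one. The CTCF log2 fold change at these 4 was 1.09 to 1.95. It was smaller, at 0.65, 0.72 and 0.99, at the starts of NR2C1, MAML1 and SLC35B3, which were looked up but are not shown.

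DIRC3, chr2:217756564-217756813, minus strand: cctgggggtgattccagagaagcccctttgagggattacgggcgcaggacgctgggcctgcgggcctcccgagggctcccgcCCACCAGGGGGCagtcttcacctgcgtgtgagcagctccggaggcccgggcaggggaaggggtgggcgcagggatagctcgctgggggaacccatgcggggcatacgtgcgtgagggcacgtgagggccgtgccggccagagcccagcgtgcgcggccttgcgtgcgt

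DEDD2, chr19:42217678-42217927, minus strand: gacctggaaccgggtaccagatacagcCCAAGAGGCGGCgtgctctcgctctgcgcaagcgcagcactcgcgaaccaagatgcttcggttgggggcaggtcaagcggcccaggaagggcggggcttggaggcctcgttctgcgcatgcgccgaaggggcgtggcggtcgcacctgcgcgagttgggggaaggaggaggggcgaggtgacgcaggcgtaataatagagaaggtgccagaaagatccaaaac

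FAAP20, chr1:2212721-2212970, minus strand: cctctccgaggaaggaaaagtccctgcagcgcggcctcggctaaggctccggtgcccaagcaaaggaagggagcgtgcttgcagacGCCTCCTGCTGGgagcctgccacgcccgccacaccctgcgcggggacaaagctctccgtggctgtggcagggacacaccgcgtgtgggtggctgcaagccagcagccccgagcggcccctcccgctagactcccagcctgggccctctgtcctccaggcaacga

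UAP1, chr1:162561281-162561530, plus strand: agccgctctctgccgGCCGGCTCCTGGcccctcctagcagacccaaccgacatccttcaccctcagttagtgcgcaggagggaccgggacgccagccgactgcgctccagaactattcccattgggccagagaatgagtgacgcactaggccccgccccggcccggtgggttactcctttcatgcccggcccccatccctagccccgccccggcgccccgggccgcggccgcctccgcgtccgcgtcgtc

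At the DIRC3 start the CTCF level was 2.29 and 1.8 CPM (counts scaled to library size by the trimmed mean of M values, TMM) at 0 h, then 3.88 and 4.48 at 6 h, and finally 8.52 and 7.73 at 72 h. No Jun, H3K27ac or Rad21 peak of any 72 h library touched that region. At the start of DEDD2, which encodes a death effector domain protein, CTCF was 3.31 and 0.722 CPM at 0 h and 7.6 and 9.27 CPM at 72 h. Rad21 there was 10.8 and 4.01 CPM at 0 h and 16.5 and 16.2 CPM at 72 h, a log2 fold change of 1.09 (edgeR quasi-likelihood test, adjusted p 0.019), while Jun fell by 0.62 on the log2 scale (adjusted p 0.0109) from levels of 26.8 and 30.8 CPM. Both 72 h values of CTCF and Rad21 lay above both 0 h values at DEDD2.

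At FAAP20, a subunit of the Fanconi anaemia core complex, CTCF was 6.37 and 4.33 CPM at 0 h and 12.7 and 10.7 CPM at 72 h. Jun at FAAP20 was 24.5 and 27.1 CPM at 0 h and 9.03 and 6.83 CPM at 72 h (adjusted p 7.49e-07) although a Jun peak was called in both 72 h libraries. UAP1, an enzyme of UDP-N-acetylglucosamine synthesis, had CTCF at 5.1 and 6.5 CPM at 0 h and 12.7 and 12.8 CPM at 72 h. Its Rad21 level of 15.9 and 10.6 CPM at 0 h and 16.8 CPM in both 72 h libraries did not pass the test (adjusted p 0.375).

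Over all gained regions with a start window, 15 of 448 windows (3.35%) held the CTCF core letters, against 844 of all 34961 windows (2.41%) and 175 of 1857 windows (9.42%) at stable regions. The share was 2.7% (10 of 371) for regions with Jun and 10.0% (4 of 40) for regions without. The AP-1 letters TGANTCA were in 28 of the 371 windows with Jun (7.55%), in none of the 40 without, and in 7.68% of all windows. Both strands were searched, the matches of each motif were counted separately, and a missing match says only that these letters are not in the window. Several windows can belong to one gene and overlap.

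Because the rule used the CTCF libraries at 0 and 72 h, CTCF values at those times are given as a description, without a test. The median CTCF level of the 2627 gained regions was 4.59 and 4.33 CPM in the 0 h libraries, 6.8 and 5.29 CPM at 6 h, and 9.91 and 8.85 CPM at 72 h. At stable regions it was 20.6 and 22 CPM at 0 h and 17.5 and 17.6 CPM at 72 h, so gained regions at 72 h reached a level below that of stable regions. With Jun the medians went from 4.08 and 3.61 CPM to 10.1 and 8.99 CPM, and without Jun from 4.84 and 5.05 CPM to 9.22 and 8.43 CPM. The typical gained region thus held some reads at 0 h, at a level below the medians of 5.61 and 5.41 CPM over all CTCF regions. Whether these reads came from bound CTCF or from background was not tested.

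**Figure D1:**
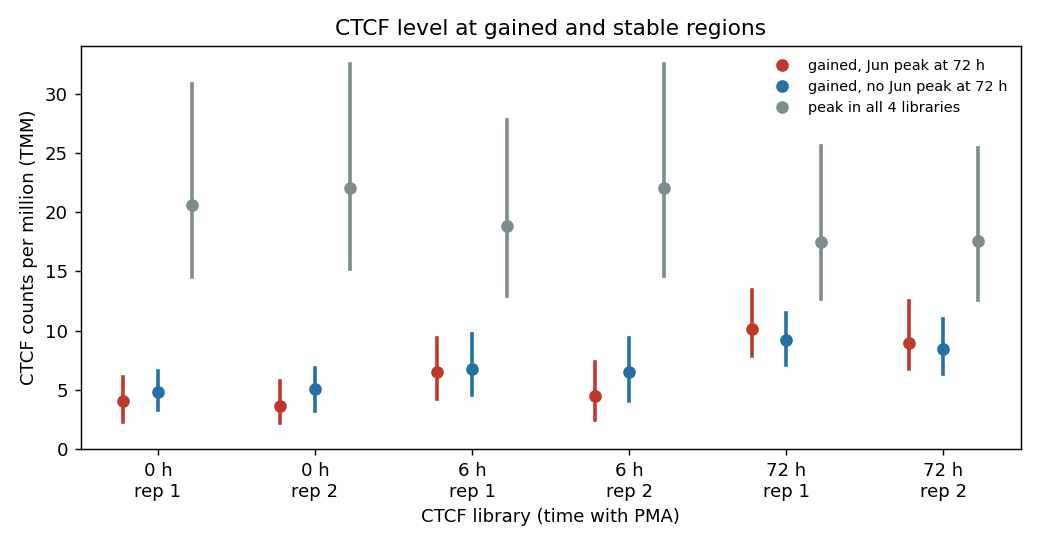
Median CTCF level in CPM (points) with the 25th to 75th percentile over regions (bars) in each of the 6 CTCF libraries, for gained regions with and without a Jun peak at 72 h and for stable regions. Medians of gained regions with Jun were 4.08 and 3.61 at 0 h against 10.1 and 8.99 at 72 h, all below the stable medians of 17.5 to 22.

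The regions just outside the rule were of 2 kinds. The 3010 regions with peaks in both 72 h libraries and 1 of the 0 h libraries had medians of 9.43 and 8.3 CPM at 0 h and 11.5 and 11.1 CPM at 72 h. The 11354 regions with a peak in 1 of the 72 h libraries and in neither 0 h library had medians of 2.55 and 2.17 CPM at 0 h and 4.84 and 5.34 CPM at 72 h. Gained regions sat between both kinds at each time. The −log10 q of the authors' peaks at gained regions started at 2.6 and 2.61 in the 72 h libraries, with medians of 7.17 and 9.52 against 14.1 and 25.2 at stable regions. With a −log10 q of at least 10 required at 72 h, 435 regions would qualify, and without the first or second 72 h library 12192 or 4416 would, and without the first or second 0 h library 4832 or 3432.

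The size of the CTCF change varied widely among gained regions. The median log2 fold change at 72 against 0 h was 1.09, with 1.34 for regions with Jun and 0.84 for regions without, against 0.03 over all regions tested. It was above 0 at 2570 gained regions and at or below 0 at the rest. By edgeR at an adjusted p under 0.05, 684 gained regions were called higher and 0 lower, where 4.07% and 2.72% of all 58156 tested regions were called higher and lower; nothing is read from this count, since the rule used the same contrast. The count was 45 and 2 without the first or second 0 h library, 170 and 150 without the first or second 72 h library, and 1254 and 1291 without the first or second 6 h library. In the authors' deposited table the label static was carried by 2481 gained regions (94.4%), with 87 upEarly, 51 upLate and 8 downEarly, against 98.8% static over all regions.

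The 6 h libraries took no part in the rule. At 6 h, 134 gained regions (5.1%) had a CTCF peak in both libraries, 522 in 1 library and 1971 (75%) in neither. Stable regions had a peak in both 6 h libraries in 70.7% of cases. A peak in at least 1 of the 6 h libraries was present at 16.6% of the regions with Jun and at 34.0% of those without. In the first 6 h library the shares were 7.94% and 12.0%, and in the second 11.9% and 28.2%. Median CTCF levels at 6 h were also lower with Jun, at 6.47 and 4.48 CPM against 6.8 and 6.51 CPM without. The median log2 fold change at 6 h was in the other order, 0.52 with Jun and 0.4 without. Median CTCF levels at 0 h were lower with Jun than without. The first 6 h CTCF library had the fewest peaks of the 6, which bears on these shares. Counts at 6 against 0 h share the 0 h libraries with the rule and are also a description: the median log2 fold change was 0.48, and 100 gained regions were called higher and 0 lower, where 2.33% and 0.325% of all regions were called. That count was 0 and 60 without the first or second 0 h library, and 232 higher without the second 6 h library, while 4 were called lower without the first. Median levels at 6 h lay between those at 0 and 72 h for regions with and without Jun.

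Jun peaks covered more gained regions than CTCF regions in general. A Jun peak in both 72 h libraries was present at 51.8% of gained regions, 21.9% of stable regions, 13.5% of lost regions and 29.5% of all regions. At 0 h the shares were 34.5%, 13.9%, 14.2% and 19.1%, so gained regions already stood above the other classes in unstimulated cells. In single libraries the gained regions had Jun peaks at 39.4% and 38.9% at 0 h, then 33.9% and 37.7% at 6 h, and finally 56.5% and 55.4% at 72 h. Jun peaks in all numbered 31637 and 35072 for the 0 h pair of libraries against 92329 and 99102 for the 72 h pair, so more were called late. The Jun libraries also differed in depth. Total counts in Jun regions were 7952946 and 8600736 for the 0 h pair. They were lower, 4766421 and 5531183, for the 6 h pair, and higher, 17245043 and 18883962, for the 72 h pair. The share of Jun counts on the mitochondrial chromosome moved from 24.0% and 27.7% to 9.07% and 8.58%. The parts of depth and of this mitochondrial share in the Jun peak calls were not tested. With 2 libraries a time point, the smallest two-sided exact permutation p for such a share is 0.333, so shares are given without a test.

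Jun counts at the same places did not follow the peaks. Of gained regions, 1797 had a region in the Jun table and 1785 were tested. Of these, 442 were called higher and 890 lower at 72 against 0 h (edgeR, adjusted p under 0.05), where 28.0% and 25.7% of all Jun regions were called higher and lower and 53.7% in either direction. CTCF regions in general had lower Jun counts too: of all CTCF regions tested for Jun, 17.1% were higher and 51.5% lower, with a median of −0.73. The median log2 fold change at gained regions was −0.56, against 0.17 over all Jun regions, but with total counts scaling, which moved the median over all regions to 0.73, 624 were called higher and 554 lower. At 6 against 0 h, 318 were called higher and 292 lower (background 13.1% and 12.2%). The median level over the regions with Jun was 12.4 and 12.5 CPM at 0 h, then 12.5 and 12.8 CPM at 6 h, and finally 12.0 and 11.6 CPM at 72 h. The split was made on Jun peaks at 72 h, so Jun levels within the classes are a description.

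Gained regions with Jun fell into 2 histories. At 847 of the 1360 a Jun peak was present in both 0 h libraries as well, at 381 in neither, and at the other 132 in 1. The 72 h Jun libraries were the deepest, and the part of depth in this split was not tested. At the 847, median Jun levels went from 21.1 and 21.8 CPM at 0 h to 15.0 and 14.5 CPM at 72 h. At the 381, they went from 3.21 and 3.15 CPM to 5.45 and 5.29 CPM at 6 h and 7.42 and 7.3 CPM at 72 h. Among these 381, 76 (19.9%) had a Jun peak in both 6 h libraries and 229 (60.1%) in neither, and 11 (2.89%) had a CTCF peak in both 6 h libraries. CTCF levels at 72 h were alike in both histories, with medians of 10.1 and 8.85 CPM for the 847 and of 10.1 and 9.41 CPM for the 381.

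H3K27ac peaks were more frequent at CTCF regions with Jun than at those without, in gained regions as in all regions. A peak in both libraries was present at 26.5%, 29.6% and 43.9% of gained regions at 0, 6 and 72 h. For regions with Jun the shares were 46.1%, 52.5% and 76.5%, and for regions without they were 2.86%, 2.58% and 5.53%. Over all CTCF regions the shares were 44.5%, 46.5% and 69.8% with Jun and 5.73%, 3.84% and 5.65% without. Stable regions had 13.6%, 12.5% and 17.2%, and stable regions without Jun 4.87%, 3.11% and 5.0%. Stable regions with a Jun peak at 72 h had 39.1%, 40.7% and 52.9%, lower than gained regions with Jun at each time. The number of H3K27ac peaks in all was 42125 and 42852 at 0 h, then 36947 and 39680 at 6 h, and finally 65267 and 66147 at 72 h.

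Of gained regions, 677 (25.8%) had an H3K27ac peak in all libraries of 0 and 72 h, 416 (15.8%) had one new at 72 h, 8 lost one, and 1363 (51.9%) had none at either time. Over all CTCF regions 16.7% had the peak at both times, 7.89% had a new one and 66.9% had none at either time. Of the new peaks at gained regions, 376 of 416 lay at regions with Jun. Over all CTCF regions most new peaks lay there too, 4472 of 5158. Of the 416, 112 (26.9%) had the H3K27ac peak in both 6 h libraries and 14 (3.37%) had a CTCF peak in both 6 h libraries. At 72 h, 1041 gained regions (39.6%) carried both Jun and H3K27ac, 243 Jun alone, 58 H3K27ac alone, and 976 (37.2%) neither. The remaining 309 had a peak of Jun or H3K27ac in 1 library.

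**Figure D2:**
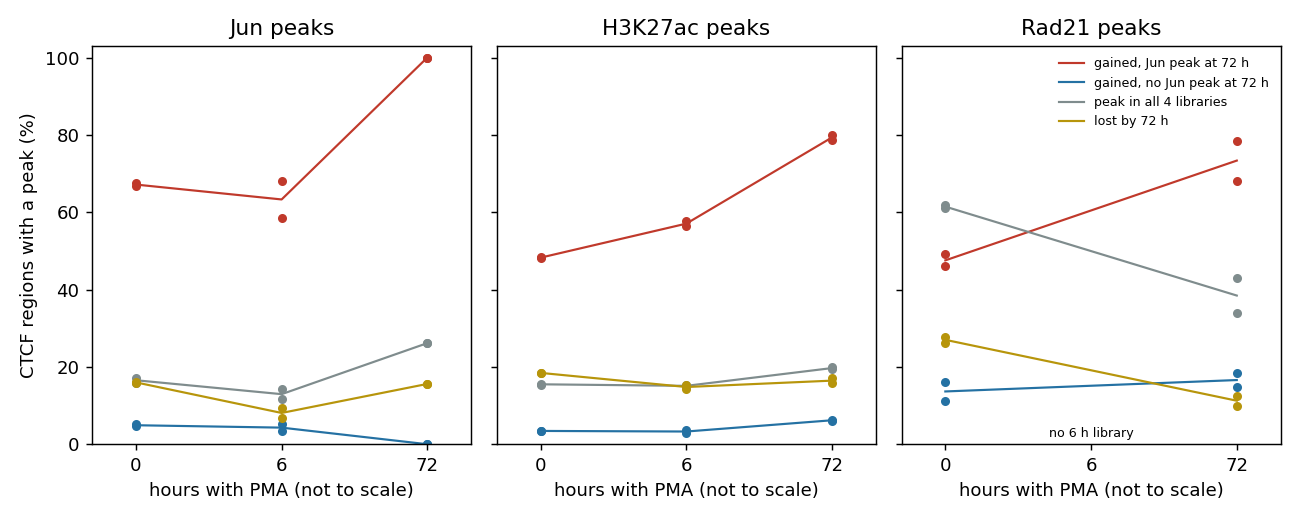
Share of CTCF regions that overlap a Jun, H3K27ac or Rad21 peak at 0, 6 and 72 h with PMA (time not to scale; points are single libraries, lines join their means), for gained regions with and without a Jun peak at 72 h, stable regions and lost regions. The Jun split fixes the 72 h values of the Jun panel for gained regions; Rad21 was at 46.0% and 49.1% at 0 h against 78.5% and 68.2% at 72 h for gained regions with Jun, and at 61.1% and 61.8%, then 43.0% and 33.9%, for stable regions.

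H3K27ac counts could be tested at 1323 of 2627 gained regions. The others had no tested region in the H3K27ac table, which regions low at 0 h could enter through later signal, so these counts are a description. At 72 against 0 h, 719 were called higher and 459 lower, or 54.3% and 34.7% of those tested. Over all H3K27ac regions 43.4% and 38.1% were called higher and lower. Of all CTCF regions tested for H3K27ac, 36.5% were higher and 45.8% lower, with a median log2 fold change of −0.23. At 6 against 0 h, 616 were higher and 389 lower (background 32.3% and 26.3%, or 58.6% in either direction). With 81.5% of all H3K27ac regions called in either direction, most regions moved, and the median log2 fold change at 72 h was 0.64 against 0.18 over all regions. At the 847 regions with Jun at both times, 361 rose and 359 fell of 808 tested. At stable regions with Jun at both times, 268 rose and 911 fell of 1783 tested. Of the 381 regions with new Jun peaks, 3.67% had an H3K27ac peak in both libraries at 0 h, 12.3% at 6 h and 53.3% at 72 h. Only 262 of them overlapped a region of the H3K27ac table, and regions low at 0 h could enter it through their later signal, so their values are a description and support no direction. Among these 262, 236 were called higher and 12 lower, with a median log2 fold change of 3.97, and median levels were 0.511 and 0.527 CPM at 0 h, then 2.69 and 2.31 CPM at 6 h, and finally 8.05 and 7.87 CPM at 72 h. The same holds for stable regions with new Jun peaks, where 408 were called higher and 137 lower of 741 tested, with a median of 1.13.

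Rad21 marks cohesin, and its peaks covered a larger share of gained regions at 72 h than at 0 h and a smaller share of stable ones. A Rad21 peak in both libraries was present at 26.0% of gained regions at 0 h and 41.3% at 72 h. For regions with Jun the shares were 39.6% and 63.1%, and for regions without Jun 7.54% and 12.5%. All CTCF regions with Jun went from 41.2% to 46.8%, stable regions from 48.5% to 26.8% and lost regions from 17.3% to 7.83%. In single libraries the gained regions had 31.3% and 35.7% at 0 h and 52.8% and 45.5% at 72 h, so the time points did not overlap, whereas without Jun they did (11.1% and 16.2%, then 18.3% and 14.9%). The number of Rad21 peaks in all was 34680 and 59005 at 0 h against 33048 and 25687 at 72 h. The second 0 h library, with the most peaks, had the higher share of the 0 h pair.

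Rad21 counts could be tested at 1773 of the 2627 gained regions, of which 1790 overlapped a region of the Rad21 table. Regions low at 0 h could enter that table through their 72 h signal, so the counts of calls here are a description. Of those tested, 646 were called higher and 27 lower at 72 against 0 h (edgeR, adjusted p under 0.05). Over all Rad21 regions 15.4% and 7.91% were called higher and lower. The median log2 fold change was 0.59, against −0.05 over all Rad21 regions and −0.31 at stable regions. With Jun, 519 (42.3%) were called higher and 21 (1.71%) lower of 1228 tested (median 0.69). Without Jun, 83 (21.7%) were called higher and 5 (1.31%) lower of 382 tested (median 0.38). CTCF regions with Jun in general also had more Rad21 regions called higher than lower. Over all CTCF regions, 26.6% were higher and 3.97% lower with Jun (median 0.31). Without Jun the shares were 7.18% and 10.5% (median −0.33). At stable regions 634 were called higher and 1636 lower of 15116 tested, and this balance differed with Jun: with Jun 495 were higher and 195 lower of 3803 (median 0.06), and without Jun 83 were higher and 1288 lower of 9881 (median −0.46). Without the first 72 h Rad21 library the numbers that rose were 385 in all, 310 with Jun and 52 without Jun, and without the second they were 44 for regions without Jun. The number that fell was 5 without the first 0 h library, 5 without the first 72 h library and 6 without the second, and it was 46 with the replicate number as a block.

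Rad21 values are given for each history of Jun. A Rad21 peak in both libraries was present at 3.41% of the 381 regions with new Jun peaks at 0 h and at 29.4% at 72 h, and at 57.0% and 79.1% of the 847 with Jun at both times. Of the 381, 270 overlapped a region of the Rad21 table, which regions low at 0 h could enter through their 72 h signal, so their counts are a description. Rad21 there was called higher at 175 and lower at 0 of 267 tested, with a median log2 fold change of 1.66 and median levels of 2.04 and 2.32 CPM at 0 h and 7.29 and 6.41 CPM at 72 h. At the 847 regions with Jun at both times, 285 rose and 19 fell of 838 tested, the median was 0.44, and median levels went from 10.2 and 9.6 CPM to 14.7 and 13.4 CPM. Without the first 72 h Rad21 library, 107 rose at the 381 and 158 at the 847. The number that fell at the 847 was 4 without the first 0 h library, 31 without the second, and 3 without either 72 h library. Stable regions with new Jun peaks had 96 higher and 56 lower of 1076 tested, with a median of −0.01. Stable regions with Jun at both times had 363 higher and 96 lower of 2255 tested, with a median of 0.12. Over all Rad21 regions 15.4% were called higher and 7.91% lower. Rad21 peak shares at stable regions went from 90.0% to 84.4% with Jun at both times and from 48.6% to 40.7% with new Jun peaks. A difference between these classes is a difference between sets of regions in the same libraries and was not tested.

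**Figure D3:**
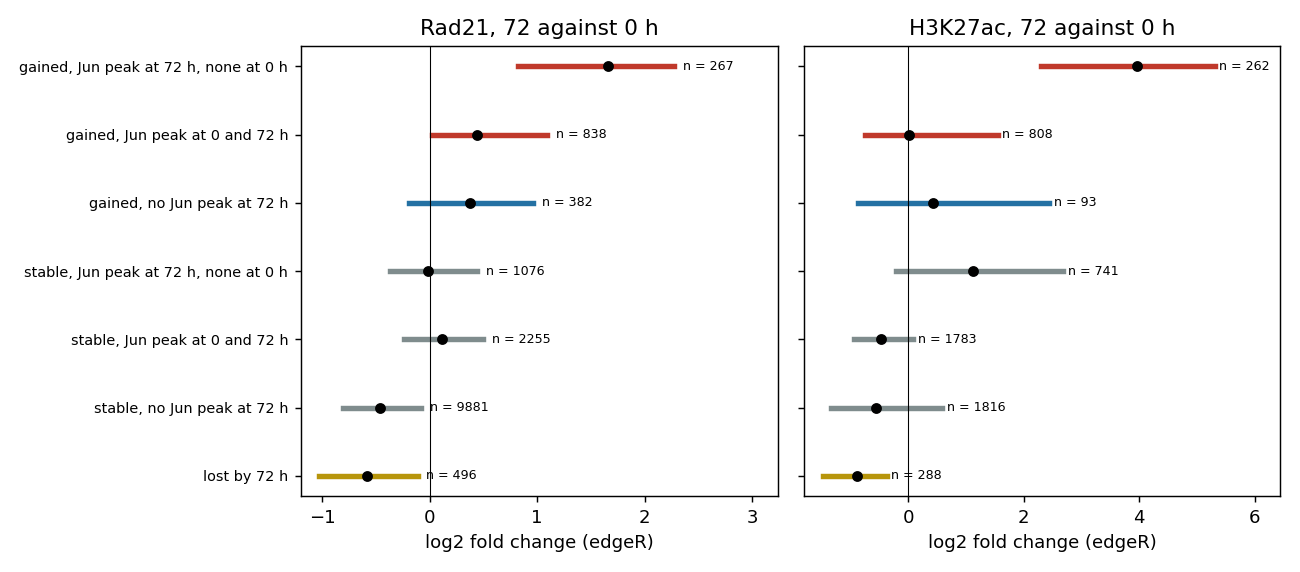
Log2 fold change at 72 against 0 h of Rad21 (left) and H3K27ac (right), as the median (point) and the 25th to 75th percentile (bar) over the tested regions of each class, with the number tested. As a description of the regions present in each table, gained regions whose Jun peak was new at 72 h had medians of 1.66 for Rad21 and 3.97 for H3K27ac, against −0.01 and 1.13 at stable regions whose Jun peak was new.

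Rad21 peaks also differed with H3K27ac. Among gained regions with both Jun and H3K27ac at 72 h, Rad21 peaks were in both libraries at 44.9% at 0 h and 69.8% at 72 h. With Jun alone the shares were 26.7% and 42.0%, and with neither 7.17% and 12.6%. The 58 regions with H3K27ac but no Jun had 10.3% at both times. Whatever their H3K27ac, CTCF regions with Jun had 41.2% and 46.8% in all, and stable regions with Jun had 75.4% and 68.1%. Shares by H3K27ac state are not given for those regions, so the pattern cannot be read as particular to gained regions.

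Among gained regions with Jun whose mean CTCF level was at or above the median of all gained regions, 6 are named for the largest CTCF fold change. They were the regions by LOC124903749, WNT9A, DOCK2, ELOCP18, LOC124904606 and TBXAS1. Each was called higher for H3K27ac, Jun and Rad21 at 72 h, where 43.4%, 28.0% and 15.4% of all regions of these antibodies were. The 6 were picked as extremes of the contrast that the rule used, so nothing is read from this. Coordinates are 1-based; the files name no build, and their contigs and positions are those of GRCh38. Inside WNT9A, a Wnt ligand gene (chr1:227934698-227935367), CTCF was 1.27 and 1.8 CPM at 0 h, then 9.06 and 2.85 at 6 h, and finally 12.0 and 13.3 at 72 h. Jun there was 46.7 and 46.6 CPM at 0 h, then 107.0 and 118.0 at 6 h, and finally 70.1 and 63.9 at 72 h. Rad21 rose from 2.04 and 3.8 to 20.5 and 22.1 CPM, a log2 fold change of 2.9 (SE 0.33, edgeR adjusted p 4.44e-06), and H3K27ac from 0.625 and 0.632 to 24.9 and 26.7 CPM. Jun at WNT9A was highest at 6 h in both libraries, while CTCF at 6 h was near its 72 h level in 1 library only.

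Inside DOCK2, an exchange factor for the small GTPase Rac in blood cells (chr5:169834055-169834693), CTCF was 0.765 and 3.25 CPM at 0 h, then 5.5 and 2.03 at 6 h, and finally 15.4 and 14.9 at 72 h. Rad21 there went from 3.77 and 1.48 to 17.7 and 11.3 CPM (log2 fold change 2.41, SE 0.38, adjusted p 0.000112). TBXAS1 encodes thromboxane synthase, a platelet enzyme, and a region within it (chr7:139889285-139889903) had CTCF at 1.53 and 4.69 CPM at 0 h, then 12.6 and 15.9 at 6 h, and finally 22.1 and 20.4 at 72 h. Here the 6 h values lay above both 0 h values in both libraries. Jun at TBXAS1 rose from 7.29 and 6.16 CPM to 18.2 and 20.8 CPM at 6 h and 20.2 and 22 CPM at 72 h (edgeR, log2 fold change 1.65 for 72 h, with SE 0.21 and adjusted p 1.93e-06).

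The region nearest to the pseudogene ELOCP18 (chr1:68384402-68385409) had CTCF at 3.31 and 1.08 CPM at 0 h, then 13.3 and 11.4 at 6 h, and finally 16.4 and 21.6 at 72 h, and its H3K27ac rose from 0.284 and 0.527 to 28.0 and 27.5 CPM. At the region by LOC124904606 (chr19:381839-382176) CTCF stayed at 3.24 and 2.03 CPM at 6 h and reached 16.4 and 15.9 CPM at 72 h, from 3.06 and 0.722 at 0 h. Jun was already 38.5 and 46.2 CPM there at 0 h and 139.0 and 127.0 CPM at 72 h, and Rad21 went from 1.26 and 3.59 to 33.5 and 23.2 CPM (log2 fold change 3.62, SE 0.37, adjusted p 1.94e-06). At the region by LOC124903749 (chr16:87580722-87581249) Rad21 rose from 0.786 and 1.69 to 6.4 and 6.22 CPM, and Jun was highest at 6 h, at 20.4 and 20.6 CPM against 15.2 and 13.4 at 72 h.

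Of the 6 regions without Jun that had the largest CTCF fold change above the same level, none overlapped a region of the H3K27ac table and 1 overlapped a region of the Jun table. Inside STK32B, a serine/threonine kinase gene (chr4:5410223-5410701), CTCF was 3.31 and 1.44 CPM at 0 h, then 5.18 and 7.73 at 6 h, and finally 16.4 and 20.4 at 72 h, with no region in any of the other tables. Inside the long non-coding RNA gene LINC00673 (chr17:72430753-72431457) CTCF was 3.57 and 3.61, then 12.6 and 8.95, then 27.9 and 22.9 CPM, and Rad21 went from 0.157 and 3.38 to 4.02 and 5.66 CPM without passing the test (adjusted p 0.0848). Rad21 passed it inside LOC105370003 (chr12:115398216-115398767), with 2.36 and 1.06 CPM at 0 h and 6.7 and 7.73 CPM at 72 h (log2 fold change 2.01, SE 0.45, adjusted p 0.00263). CTCF at that region was 3.06 and 2.17 CPM at 0 h and 17.5 and 18.8 CPM at 72 h. At each of these 3 regions both 72 h CTCF values lay above all earlier ones.

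Near SSUH2 (chr3:8682812-8683367) CTCF was 3.57 and 2.17 CPM at 0 h, then 12.0 and 14.2 at 6 h, and finally 16.4 and 22.8 at 72 h, and Jun was 1.75 and 0.143, then 6.58 and 6.02, then 3.76 and 3.52 CPM, with no Jun peak at 72 h. Jun was called higher there (log2 fold change 1.94, SE 0.5, adjusted p 0.0028). The region nearest to LOC101927847 (chr9:89919239-89919515) lies 49901 bp from that gene and had CTCF at 1.27 and 2.89, 9.06 and 1.63, and 11.1 and 16.7 CPM. The last of the 6 lies in the ribosomal RNA gene RNA45SN2 (chr21:8212969-8213296), one of many near-identical copies, so its counts may be split among or drawn from other copies. CTCF there was 46.9 and 22.7 CPM at 0 h and 243.0 and 216.0 CPM at 72 h, and Rad21 52.5 and 74.7 against 264.0 and 240.0 CPM.

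**Figure D4:**
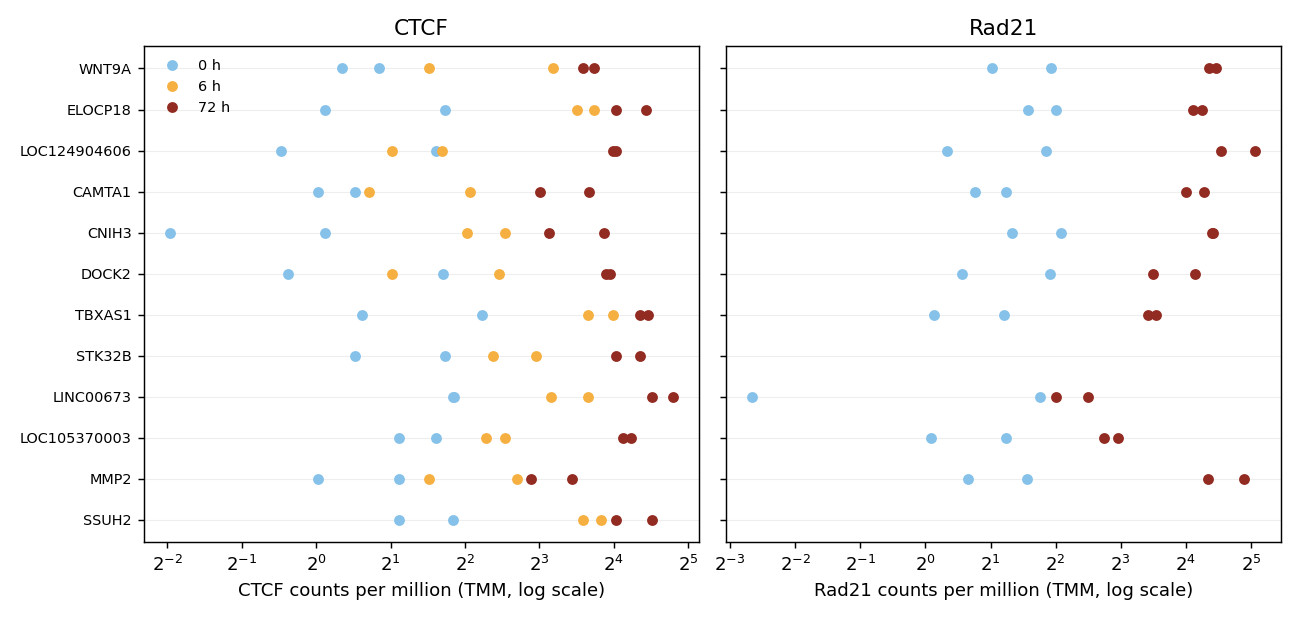
CTCF (left) and Rad21 (right) CPM in every library, on a log axis, at 12 of the gained regions named in the text, labelled by the gene that contains or lies nearest to each; colours mark 0, 6 and 72 h, and Rad21 has no 6 h library. A row without Rad21 points has no region in the Rad21 table; at MMP2 Rad21 was 1.57 and 2.95 at 0 h and 20.2 and 29.6 at 72 h.

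Among gained regions called for Rad21 with a mean Rad21 level at or above the median of those tested, the 4 with the largest rise were by LOC105376856, LOC124904606, MMP2 and KCNF1, and 3 of them had Jun. At chr1:22380379-22381060, 35271 bp from LOC105376856, Rad21 went from 1.26 and 1.69 to 19.1 and 20.2 CPM (log2 fold change 3.74, SE 0.36, adjusted p 1.74e-06). At chr2:10935966-10936544, 21741 bp from the potassium channel gene KCNF1, Rad21 went from 1.42 and 1.69 to 17.6 and 17 CPM (log2 fold change 3.47, SE 0.36, adjusted p 2.85e-06). The exception without a Jun peak was a region inside MMP2, a gelatinase gene (chr16:55482961-55483341), where Rad21 rose from 1.57 and 2.95 to 20.2 and 29.6 CPM (log2 fold change 3.49, SE 0.35, adjusted p 1.94e-06). At MMP2 Jun was 2.19 and 5.59 CPM at 0 h and 2.04 and 2.46 CPM at 72 h, a difference that did not pass the test (adjusted p 0.111), and no region of the H3K27ac table overlapped it.

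Under the same level rule, the steepest Rad21 falls lay at 2 regions of chromosome 1 where Jun and H3K27ac fell too and where CTCF values at 0 and 72 h overlapped. At chr1:16867207-16867447, in LOC124903860, Rad21 fell from 55.7 and 53.0 to 14.6 and 15.1 CPM (log2 fold change −1.87, SE 0.24, adjusted p 1.27e-05), Jun from 40.3 and 47.4 to 7.94 and 10.1 CPM, and H3K27ac from 22.2 and 23.3 to 5.97 and 5.1 CPM. CTCF there was 5.1 and 8.66 CPM at 0 h and 7.6 and 4.78 CPM at 72 h, so the groups overlapped although the region met the peak rule. At chr1:16732433-16732867, by LOC124903859, Rad21 fell from 77.8 and 80.6 to 24.6 and 19.2 CPM (log2 fold change −1.85, SE 0.24, adjusted p 1.31e-05), with CTCF at 13.8 and 10.5 CPM before and 17.3 and 13.3 CPM after.

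The 4 regions with the largest H3K27ac rise, among those called for H3K27ac at or above the median level, lay within genes. Inside CAMTA1, a calmodulin-binding transcription activator gene (chr1:7478917-7479371), H3K27ac was 0.114 and 0.211 CPM at 0 h, then 3.43 and 2.85 at 6 h, and finally 69.2 and 75.8 at 72 h (log2 fold change 8.74, SE 0.23, adjusted p 2.62e-20). CTCF there was 1.02 and 1.44 CPM at 0 h, then 4.21 and 1.63 at 6 h, and finally 12.7 and 8.01 at 72 h. Inside CNIH3, which encodes an auxiliary protein of AMPA receptors (chr1:224708305-224708895), H3K27ac was 0.681 and 0.632, 13.9 and 10.7, and 99.8 and 107.0 CPM, and CTCF 0.255 and 1.08, 5.83 and 4.07, and 8.76 and 14.6 CPM. In both genes Jun rose as well, by 3.13 (SE 0.29, adjusted p 5.07e-08) at CAMTA1 and 2.58 (SE 0.22, adjusted p 1.88e-08) at CNIH3 on the log2 scale. The other regions lay in LOC124902904 (log2 fold change 7.63) and in the overlapping genes LOC105374894 and LOC124901247 (7.46).

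Under the same level rule, the steepest H3K27ac falls were at SPECC1 and GSE1. In GSE1 (chr16:85535454-85535809) H3K27ac fell from 97.6 and 98.3 CPM at 0 h to 21 and 21.1 at 6 h and 8.51 and 6.81 at 72 h (log2 fold change −3.68, SE 0.12, adjusted p 5.88e-19), Jun from 27.7 and 32.8 to 7.32 and 6.37 CPM, and Rad21 from 29.9 and 23.2 to 10.9 and 12.1 CPM. CTCF went from 4.08 and 2.17 to 7.83 and 5.62 CPM, so here CTCF was higher at 72 h in both libraries while the other 3 signals were lower. In SPECC1 (chr17:20010026-20010598), where a Jun peak was called in 1 of the 72 h libraries, H3K27ac fell from 64.6 and 70.2 to 5.39 and 4.92 CPM and CTCF was 10.5 and 11.2 CPM at 0 h and 10.6 and 8.15 CPM at 72 h.

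Gene lists of the lineage and of the PMA response were searched within 50 kb of each gene span. A gained region lay there for 13 of 30 megakaryocyte and platelet genes, 6 of 24 erythroid genes, 8 of 34 PMA and AP-1 response genes and 3 of 19 genes of loop architecture (CDCA5, WAPL and ZNF143). Stable regions lay within the same distance of 23, 18, 28 and 19 of these genes, and lost regions of 6, 3, 3 and 3. Long genes have more chance to hold a region, which these counts do not correct for. Neighbouring genes can share a region: HBE1, HBG1 and HBG2 were reached by the same gained region. No share over all genes is given, so no excess or lack near a list is read from these counts.

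Among the genes with a gained region inside their span, ITGA2 encodes a collagen receptor subunit of platelets. It held 2 gained regions, and the one named here (chr5:53019264-53019703, with Jun) had CTCF at 0.765 and 3.25 CPM at 0 h, then 6.8 and 2.85 at 6 h, and finally 11.5 and 5.9 at 72 h, H3K27ac at 0.341 and 0.316, 1.89 and 0.787, and 5.54 and 6.59 CPM, and Rad21 at 0.472 and 1.9 then 4.17 and 6.22 CPM (log2 fold change 2.19, SE 0.59, adjusted p 0.00933). ITGB3 encodes the beta subunit of the fibrinogen receptor. It also held 2 gained regions, and the one named here (chr17:47288472-47288818, with Jun) had CTCF at 1.02 and 3.61 CPM at 0 h and 7.6 and 9.13 CPM at 72 h. H3K27ac was already 56.4 and 53.3 CPM at 0 h and rose to 106.0 and 110.0 CPM (log2 fold change 0.97, SE 0.1, adjusted p 3.01e-09), while Jun fell by 0.91 on the log2 scale (SE 0.18, adjusted p 0.000283). Rad21 did not pass the test at ITGB3 (log2 fold change 0.41, adjusted p 0.303).

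VCL encodes vinculin, which links adhesion sites to actin, and the gained region inside it (chr10:73998998-73999655, with Jun) lies 882 bp from a start. CTCF there was 6.63 and 5.05 CPM at 0 h, then 12.6 and 7.32 at 6 h, and finally 12.2 and 13.1 at 72 h, and Rad21 rose from 4.87 and 6.54 to 14.9 and 13.8 CPM (log2 fold change 1.34, SE 0.3, adjusted p 0.00259). H3K27ac at VCL was high throughout, at 89.5 and 93.5 CPM at 0 h and 80.1 and 76.8 CPM at 72 h. SPRED2, a brake on Ras signalling, had a region (chr2:65320215-65320802, with Jun) where CTCF went from 3.31 and 3.25 to 7.83 and 10.7 CPM and Jun from 3.65 and 4.87 to 12.6 and 11.6 CPM. Inside DUSP4, a MAP kinase phosphatase gene, CTCF went from 2.55 and 3.97 to 7.37 and 7.3 CPM and H3K27ac from 0.681 and 0.422 to 10.4 and 10.3 CPM.

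The region at IL6, the gene of a cytokine that PMA induces in many cells (chr7:22728394-22728879, without Jun), shows the limit of a rule on peak calls. Its CTCF level was 22.4 and 18.8 CPM at 0 h, then 16.2 and 19.5 CPM at 6 h, and finally 18.0 and 15.3 CPM at 72 h. Both 72 h values lay below both 0 h values, yet it met the rule of a peak in both 72 h libraries and in neither 0 h library. No region of the H3K27ac, Jun or Rad21 tables overlapped it.

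CTCF regions with Jun lay at gene starts more often than those without, in gained regions as in all regions; chromosome 8, for which no start windows were used here, is left out of shares and distances to starts. A RefSeq start window was overlapped by 20.2% of regions with Jun and by 3.3% of those without, against 19.8% and 4.37% of all regions with and without Jun and 4.08% of stable regions without Jun. For gained regions with Jun at both 0 and 72 h the share was 28.4%, and for those with new Jun peaks 4.47%. Stable regions were split in a similar way, with 27.1% and 7.69%. The median distance to a start was 19140 bp with Jun and 37386 bp without. Of 3812 stable regions with Jun, 761 overlapped a window. Gene spans held 69.9% of gained regions with Jun and 57.7% of those without, against 69.2% and 61.0% over all regions; the RefSeq table has no exons, so introns and exons were not told apart.

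Gained regions were spread over all 23 chromosomes tested. The share of CTCF regions that were gained was highest on chromosome 1 (5.28%, 432 regions) and chromosome 22 (5.22%, 64 regions) and lowest on chromosome 4 (2.82%, 75 regions). Within 10 kb of another gained region lay 217 of the 2627. The median width of gained regions was 454 bp, against 630 bp for stable regions.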

How the data were processed

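The data were 22 libraries of K562 cells over 4 antibodies, grouped by antibody and time from the sample titles. The submitters' processing notes list Trim Galore 0.4.3, BWA 0.7.17, SAMtools 1.9, deepTools 3.0.1, MACS2 and bedtools 2.26, and the builds hg19 and hg38; which build each file uses is not given in the sources used here, and positions were read as GRCh38 from contig names and gene positions. The authors deposited 1 table of raw counts per antibody over regions shared by all its libraries, with their own log2 fold changes and adjusted p-values per the file headers. They also deposited peaks for each library, with fold enrichment and −log10 p and q. From the authors' comparisons only the class labels and CTCF fold changes were read.

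Counts were tested with edgeR 4.0.16 (quasi-likelihood, TMM, R 4.3.3) in 1 fit per antibody over all its libraries, with Benjamini-Hochberg adjustment over all tested regions and a threshold of 0.05. This script was tested on simulated data. Regions of different tables were joined by an overlap of at least 1 bp. The members, gene lists and rules were chosen with earlier results of these data known. Regions were named by a rule: per Jun class the 6 largest CTCF changes, the 4 largest and 2 smallest changes of Rad21 and of H3K27ac, each among members at or above the median level, and 6 regions nearest to listed genes, with ties broken by CTCF level, chosen after seeing the data. Alternatives were DESeq2 1.42.0, other filters and scaling, a replicate block, other peak thresholds and leaving out each library. Reads without molecular identifiers are not independent molecules. Some markers of the cell type check are not reported here.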

Additional observations from a re-analysis of the deposited data

How the results depend on the processing

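The counts of called regions moved more with the processing than the directions did. The 85 results were rerun in other settings, and 6 of all the rerun values changed sign. With a 72 h CTCF −log10 q of at least 10, 435 regions were gained, and leaving out 1 library gave 3432 to 12192. The share with Jun at 72 h (51.8%) was 49.8% with 50% overlap, 38.2% at the stricter CTCF q, 60.1% with either library, 42.7% at a stricter Jun q and 41.3% to 56.5% without 1 library. The H3K27ac share (43.9%) was 36.8%, 20.5%, 47.4% and 36.0% under those settings in turn and 33.3% to 47.5% without 1 library, and the Rad21 share (41.3%) was 56.9% with either library, 20.1% at the stricter q and 32.7% to 52.8% without 1 library.

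CTCF regions called higher at 72 h were 240 by DESeq2, 83 with a mean count of at least 50, 1248 with only the time points compared, 1350 with total counts scaling and 2 to 1291 without 1 library; at 6 h they were 31 with the count filter and 0 to 232 without 1 library, and 0 to 4 were lower. With total counts scaling, Jun was lower at 184 regions at 6 h and 554 at 72 h, and H3K27ac at 6 h at 218, 198 with Jun and 10 without; with 50% overlap, 20 without Jun were higher for H3K27ac at 6 h.

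Rad21 was higher at 403 by DESeq2, 341 with the count filter and 385 to 663 without 1 library, and lower at 9 by DESeq2, 56 with total counts scaling and 5 to 40 without 1 library. With Jun it was higher at 336, 260 and 310 to 536, and lower at 9, 42 and 3 to 31. Without Jun it was higher at 41, 46 and 44 to 97, and lower at 0 by DESeq2, 1 with the count filter, 11 with total counts scaling and 1 to 6. With Jun at both times it was higher at 184 by DESeq2 and 158 to 321, and lower at 9, 39 and 3 to 31; with new Jun peaks it was higher at 107 by DESeq2, 32 with the count filter and 107 to 176. The median Jun change at 6 h was 0.16 with total counts scaling and 0.02 without the first 0 h Jun library (−0.18 to 0.02 without 1 library), and the H3K27ac median at regions with Jun at both times was −0.04, −0.02 or −0.01 in 4 settings against 0.01, and −0.04 to 0.05 without 1 library. The causes were not tested.

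With the replicate number as a block, CTCF was higher at 1017 regions, Rad21 higher at 718 and lower at 46 (38 with Jun, 36 with Jun at both times), H3K27ac 722 and 464, and Jun 434 and 884. The differences between replicates correlated at −0.00841 to 0.124 between time points, above 0.1 in 2 of the 3 CTCF pairs of times; the labels do not say what the numbers mark, and they were not taken to pair libraries. CTCF levels at 0 h were low, with medians of 4.59 and 4.33 CPM.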

Other observations

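H3K27ac at the starts of the listed genes was tested wherever a start window overlapped a region of the H3K27ac table (edgeR, adjusted p under 0.05). Where several regions overlapped the windows of a gene, the one with the highest mean level was taken. Among loop architecture genes, 11 of 19 could be tested; 8 were lower and 0 higher at 6 h (median log2 fold change −0.53), and 11 were lower at 72 h (median −0.79). Among erythroid genes, all 8 tested were lower at both times, with medians of −1.69 at 6 h and −2.54 at 72 h. Among PMA and AP-1 response genes, 8 of 17 tested were higher and 2 lower at 72 h (median 0.2), and among megakaryocyte and platelet genes 3 of 15 were higher and 10 lower (median −0.31). Over all H3K27ac regions 43.4% were called higher and 38.1% lower at 72 h. That background is not limited to gene starts, and no share over all gene starts is given. Whether a fall is particular to a list therefore cannot be read from these values.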
